A study of Gossypium hirsutum with 6 samples.

Results

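The genes described here are 159 root genes of upland cotton that remained expressed but at no more than 50% of their control level after exposure to PS-COOH. They were chosen by FPKM values of both groups (fragments mapped to a gene, scaled by transcript length and library size), among 75376 identifiers that start with Gohir., of 81166 in the table. A gene had to average from 5 to under 200 FPKM in the control libraries and at most 50% of that in the PS-COOH libraries. Its highest PS-COOH value had to lie below its lowest control value, and each PS-COOH library had to hold at least 1 FPKM. The high-numbered end of chromosome code D05 was left out. Because this choice used the PS-COOH and control values themselves, the size and direction of the difference in these genes are given as a description and are not tested.

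The PS-COOH group holds 3 libraries from roots kept for 9 days with PS-COOH, polystyrene bearing carboxyl groups, at 300 mg/l. The control group holds 3 libraries from roots kept for 9 days with 0 mg/l. Both groups are Gossypium hirsutum roots; the labels name no cultivar, plant age or particle size, and give no origin from separate plants or cultures for the libraries, so p-values cover the spread of these libraries alone, and that spread may be technical.

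Upland cotton is an allotetraploid that carries an A and a D subgenome, so most of its genes exist as an A copy and a D copy. Polystyrene particles with carboxyl groups carry a negative surface charge in water and are widely used as models of weathered plastic at root surfaces. The level of a transcript reflects both its synthesis and its decay, and a lower level in a whole root does not say which of them differs. In RNA from whole roots, fewer cells of a type and less RNA per cell cannot be told apart.

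The table pairs its identifiers with no gene names, and 0 of them matched a RefSeq list of 99454 cotton genes, so no function, sequence or homoeologous partner can be given for the 159 genes, and the root label could not be checked against marker genes. Only 2 identifiers are printed, and the other genes are called by their chromosome code and level. Summed FPKM was 596571 to 607555 in the PS-COOH libraries and 559567 to 568456 in the control libraries, so the genes' levels are also given as shares of these sums. Read counts are not given, so absolute depth is unknown. Within 1 gene and 1 library, 1 fragment is worth a fixed FPKM. From the values of genes under 0.1 FPKM, the PS-COOH libraries were 1.04 to 1.10 times and the control libraries 0.973 to 1 times as deep as control replicate 1. Apart from that library, each value rests on a peak of only 35 to 44 genes.

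Of the 21325 Gohir identifiers in the control range of 5 to under 200 FPKM, 180 had a PS-COOH mean at most 50% of the control mean. In 178 of them every PS-COOH library was below every control library, which is 0.835% of the range. Of these 178, 17 were below 1 FPKM in at least 1 PS-COOH library, and 2 lay at the end of D05. The remaining 159 genes make up 0.746% of the control range. Separation of the groups was frequent by itself, since every PS-COOH library was below every control library in 30.6% of the range. The chosen genes are marked out by the size of the difference, which the rule fixed.

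**Figure D1:**
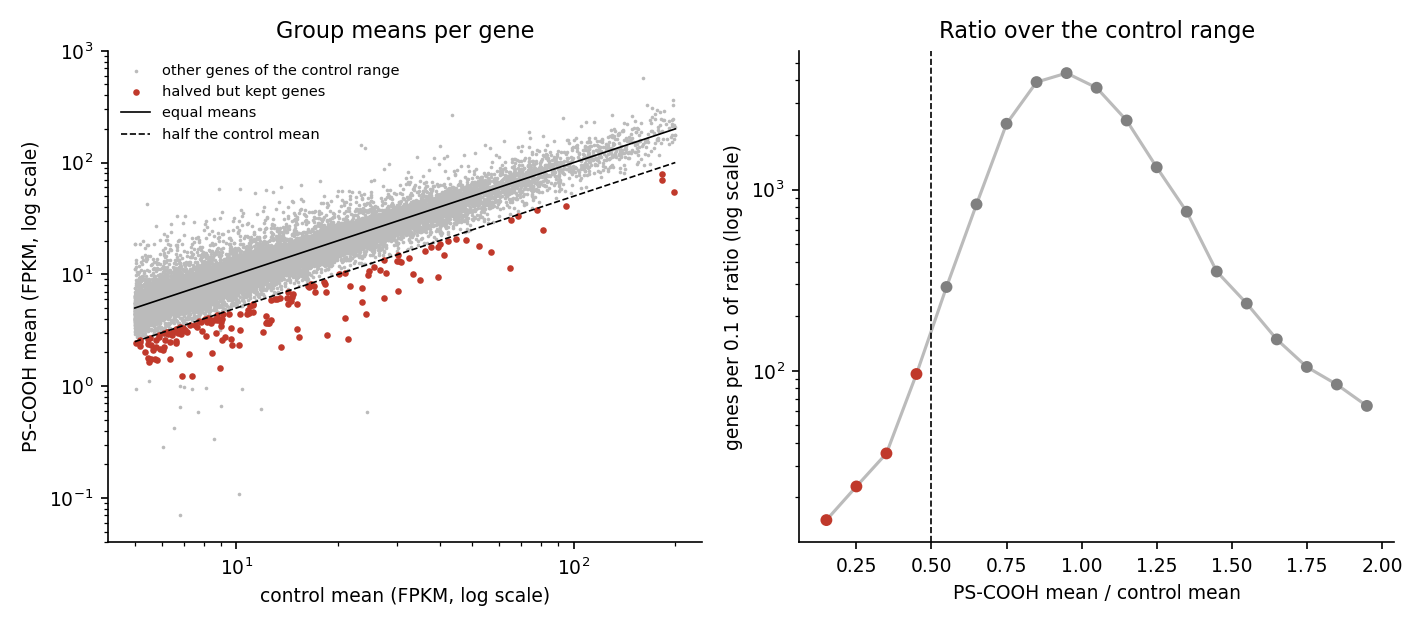
Left, mean FPKM of the PS-COOH libraries against mean FPKM of the control libraries for each of the 21325 genes of the control range, both axes on a log scale; right, the number of genes per 0.1 of the ratio of the means, on a log scale, with ratios at or below 0.5 in red. The red genes on the left are the 159 chosen ones, and on the right the counts decline without a gap across the dashed line, with 290 genes over 0.5 to 0.6 and 96 over 0.4 to 0.5.

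The 159 genes averaged 1.23 to 79.3 FPKM in the PS-COOH libraries, with a median of 3.94, and 5.04 to 199 FPKM in the control libraries, with a median of 10.8. The typical gene kept 43.1% of its control level, and the genes in the middle of the list kept between 32.4% and 46.9% (first and last quartile). Most sat close to the limit: 93 kept over 40%, 34 kept over 30% to 40%, 22 kept over 20% to 30%, and 10 kept under 20%. Across the whole control range the median ratio was 0.971, and 1% of the genes lay below 0.515. The chosen genes lie in the low tail of this distribution but are not its outermost genes: 12 genes of the control range had a lower ratio than any of the 159, and 11 of these were at or below 0.1.

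Though lowered, most of the genes stayed in the upper part of the table. In the PS-COOH libraries 148 of the 159 averaged at least 2 FPKM, 63 at least 5 FPKM and 30 at least 10 FPKM. Ranked among all 75376 Gohir identifiers, the median gene stood at the 66.8th percentile in the PS-COOH group and at the 85.6th percentile in the control group. The lowest-ranked gene was at the 46.7th percentile in the PS-COOH group. The rule's limits of 1 FPKM in each PS-COOH library and 5 FPKM in the control mean set a floor under these ranks. The ranks thus follow in part from the choice of the genes and are a description.

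**Figure D2:**
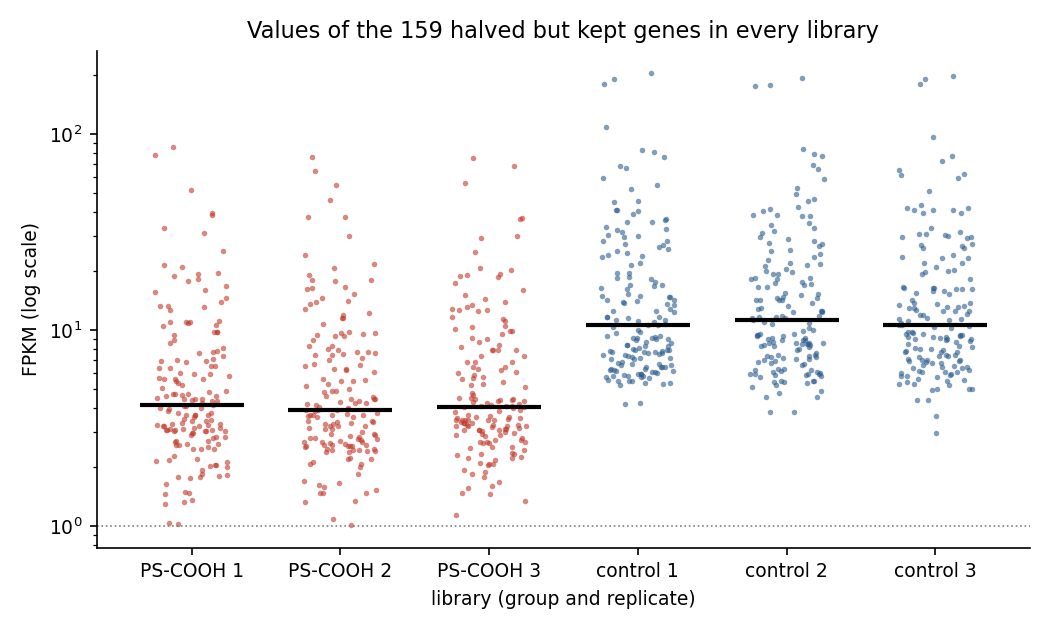
FPKM (log scale) of the 159 genes in each of the 6 libraries, 1 point per gene, with the median of each library as a black bar and a dotted line at 1 FPKM. The medians are 4.14, 3.91 and 4.05 FPKM in the PS-COOH libraries and 10.6, 11.3 and 10.6 FPKM in the control libraries.

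The 3 PS-COOH libraries showed the lower levels to nearly the same extent. Relative to each gene's control mean, the median gene stood at 41.2% in PS-COOH replicate 1, 41.3% in replicate 2 and 41.7% in replicate 3. The number of genes at or below 50% of the control mean was 139, 143 and 133 in these libraries, so in each library some genes with a lower mean exceeded 50%. PS-COOH replicate 2 held the lowest value of its group for 67 of the 159 genes, against 41 for replicate 1 and 51 for replicate 3. Its median deviation from the group mean was -0.035 on the log2 scale in the 159 genes and -0.018 in the other genes of the control range, so this library was slightly low in both.

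Together the genes took up a small share of the transcriptome. Their FPKM summed to 1241, 1218 and 1218 in the PS-COOH libraries, against 3276, 3182 and 3161 in the control libraries. As a share of all FPKM this was 0.203 ± 0.0043% in the PS-COOH libraries and 0.570 ± 0.0064% in the control libraries (SD, n = 3 each). The sum kept 38.2% of its control value and the median gene 43.1%. The 3 genes with the largest loss in FPKM accounted for 18.2% of the summed loss and the 10 largest for 34.0%.

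The gene with the highest control mean was Gohir.A10G199000.v2.1, on chromosome code A10; in the PS-COOH libraries 2 of the other genes were higher. It had 51.9, 54.7 and 56.2 FPKM in the PS-COOH libraries, against 204, 193 and 199 FPKM in the control libraries. The libraries of each group lay close together and the groups were far apart, with means of 54.3 ± 2.19 and 199 ± 5.27 FPKM (PS-COOH and control, SD, n = 3 each), so 27.3% of the control level was kept. On the log2(FPKM + 1) scale the difference was -1.85 (SE 0.048), a value that the choice of the gene fixed in direction and that is not tested. This gene also had the largest loss in FPKM, 144, and stood just below the upper limit of the control range.

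Gohir.D12G221700.v2.1, on D12, kept the smallest part of its level. It had 2.97, 2.58 and 2.31 FPKM in the PS-COOH libraries, against 24.2, 20.1 and 20.003 FPKM in the control libraries. Its means were 2.62 ± 0.331 and 21.4 ± 2.40 FPKM (PS-COOH and control, SD, n = 3 each), which is 12.2% of the control level, or 8.17-fold lower. Even its lowest control value was 6.74 times its highest PS-COOH value, the widest gap among the 159 genes. The log2(FPKM + 1) difference was -2.63 (SE 0.10), given as a description for the same reason.

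The next 2 genes by control mean, on A05 and D11, lost less in proportion. The A05 gene had 85.6, 76.4 and 75.9 FPKM in the PS-COOH libraries, against 191, 177 and 180 FPKM in the control libraries, and kept 43.4%. The D11 gene had 77.8, 64.6 and 68.9 FPKM in the PS-COOH libraries, against 180, 177 and 190 FPKM in the control libraries, and kept 38.6%. These 2 genes and the A10 gene were the only ones of the 159 above 100 FPKM in the control mean, and the fourth by control mean, on A10, averaged 41.1 ± 4.62 FPKM in the PS-COOH and 94.6 ± 14.6 FPKM in the control libraries (SD, n = 3 each).

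Ranks 5 to 10 by control mean fall on A05, A05, D03, D12, A01 and A10. They averaged 24.9, 37.6, 33.4, 30.6, 11.4 and 16.0 FPKM in the PS-COOH libraries, against 80.8, 77.9, 68.6, 65.3, 64.6 and 57.0 FPKM in the control libraries. The A01 gene stands apart from the other 5, which kept between 28.0% and 48.7% of their level. It had 11.0, 11.5 and 11.7 FPKM in the PS-COOH libraries, against 69.0, 59.0 and 65.7 FPKM in the control libraries, and kept 17.7%. It is the 1 gene among both the 10 with the highest control mean and the 10 with the lowest ratio.

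**Figure D3:**
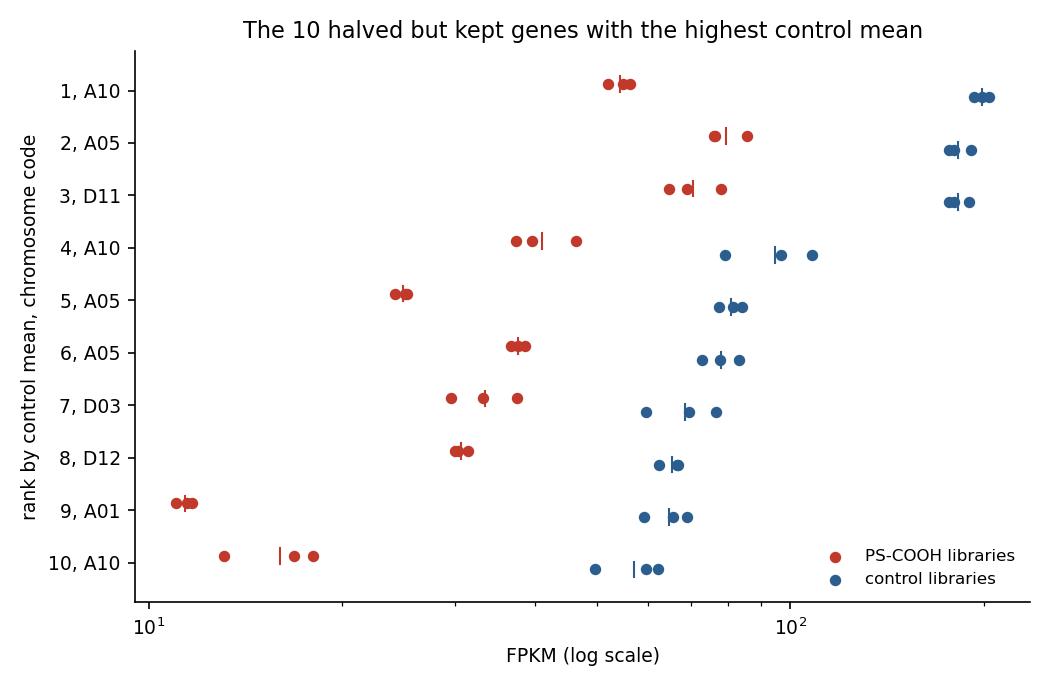
FPKM (log scale) of the 10 genes with the highest control mean, with the 3 PS-COOH libraries as red points above the 3 control libraries as blue points and a short vertical line at each mean. In all 10 genes the red points lie to the left of the blue ones, as the rule requires, and the distance is widest for the A01 gene at 11.4 against 64.6 FPKM.

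The 10 genes with the lowest ratio, led by Gohir.D12G221700.v2.1, were spread over 9 chromosome codes and kept between 12.2% and 19.4% of the control level. After it came a D11 gene, with 2.85, 2.43 and 3.25 FPKM in the PS-COOH libraries, against 18.6, 20.5 and 16.6 FPKM in the control libraries. A D13 gene had 1.29, 1.52 and 1.56 FPKM in the PS-COOH libraries, against 7.92, 9.46 and 9.41 FPKM in the control libraries. These 2 genes kept 15.3% and 16.3%.

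The fourth gene by ratio, on D04, differed from them in its spread. It had 3.07, 2.21 and 1.48 FPKM in the PS-COOH libraries, against 13.5, 13.3 and 13.8 FPKM in the control libraries, so the PS-COOH values varied by 35.4% of their mean (coefficient of variation) and the control values by 1.80%. The others of the 10, on A10, A01, D02, D10, A01 and A04, averaged 1.23, 11.4, 2.77, 1.24, 4.46 and 4.06 FPKM in the PS-COOH libraries, against 7.40, 64.6, 15.4, 6.88, 24.2 and 20.9 FPKM in the control libraries. Both A01 genes were even among the PS-COOH libraries, with coefficients of variation of 2.99% and 2.13%.

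The share of genes that met the rule stayed under 1% at every control level. It was 0.771% of the 9723 genes from 5 to under 10 FPKM, 0.630% of 6506 from 10 to under 20, 0.837% of 3825 from 20 to under 50, and 0.865% of 1271 from 50 to under 200. The median part kept was 44.1%, 41.4%, 41.9% and 38.6% in these 4 ranges. The lowest range can lose genes to the minimum of 1 FPKM, which a gene at 5 FPKM reaches at 20% of its level. Genes at least doubled, with every PS-COOH library above every control library, were more frequent in each range, at 1.41%, 1.29%, 1.15% and 1.02%. Over the whole control range there were 278 of them, or 1.30%. The limits of 1 FPKM and of the end of D05 were not applied to them. Without these limits the lowered genes number 178, or 0.835%.

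Libraries of a group differed by a modest amount in the 159 genes. The median coefficient of variation was 10.1% in the PS-COOH libraries and 7.59% in the control libraries, and it was higher in the PS-COOH group for 97 of the 159 genes. In the other genes of the control range the medians were 6.44% in the PS-COOH and 6.52% in the control libraries. Low FPKM values vary more. Among other Gohir genes whose PS-COOH mean lay between the quartiles of the 159 genes, 2.84 to 7.90 FPKM, the median was 9.22%. The 10.1% covers all 159 genes, including those outside these quartiles, so the 2 sets are not fully matched in level. Their medians were near each other, and the upper quartile was 15.7% in the 159 genes and 13.4% in the other genes. The control spread was not compared at a matched level.

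The widest PS-COOH spreads, 61.8%, 52.5% and 50.3%, belonged to genes on A10, A05 and A05. The A10 gene had 1.32, 1.69 and 3.98 FPKM in the PS-COOH libraries, against 7.56, 12.8 and 8.81 FPKM in the control libraries. The first A05 gene had 1.03, 2.08 and 3.26 FPKM in the PS-COOH libraries, against 6.48, 4.55 and 5.99 FPKM in the control libraries. In the other A05 gene 4.25, 1.32 and 3.48 FPKM in the PS-COOH libraries stood against 5.37, 8.27 and 6.55 FPKM in the control libraries, the smallest gap between the groups of any of the 159 genes. All 3 averaged under 5 FPKM in the PS-COOH libraries.

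In the control libraries the widest spreads, 42.1%, 36.6% and 33.7%, were found on A04, D11 and A09. The A04 gene had 1.79, 2.01 and 1.46 FPKM in the PS-COOH libraries, against 7.47, 6.76 and 2.98 FPKM in the control libraries, with control replicate 3 far below the other 2. The D11 gene had 2.05, 2.74 and 1.88 FPKM in the PS-COOH libraries, against 8.27, 3.82 and 6.21 FPKM in the control libraries. For the A09 gene 6.01, 5.59 and 6.49 FPKM in the PS-COOH libraries stood against 10.7, 18.3 and 10.6 FPKM in the control libraries, where replicate 2 alone lifts the mean.

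The limits of 50% and of 5 FPKM in the control mean pass through many similar genes. Just inside the limit of 50%, genes on A12, A09 and A02 kept 49.9%, 49.8% and 49.7%, and just outside it, genes on D06, D05 and A13 kept 50.03%, 50.05% and 50.1%. Over 45% to 50% lay 58 of the 159 genes, and 109 further genes met the rest of the rule at over 50% to 55%. At the lower limit of the control mean, the nearest gene inside, on A07, averaged 2.42 FPKM in the PS-COOH and 5.04 FPKM in the control libraries. The nearest outside, on D11, averaged 2.05 FPKM in the PS-COOH and 4.93 FPKM in the control libraries, and 25 genes with a control mean from 4 to under 5 FPKM met the rest of the rule.

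At the upper limit of the control mean only 3 genes met the rest of the rule at 200 FPKM or above. On D13, D06 and A09, they averaged 92.4, 145 and 269.7 FPKM in the PS-COOH libraries, against 205, 318 and 569 FPKM in the control libraries, and kept 45.2%, 45.5% and 47.4%. At the limit of 1 FPKM in each PS-COOH library, the lowest values inside were 1.01, 1.02 and 1.03 FPKM, in genes on D10, A10 and A05. The nearest gene outside, on A10, had 0.912, 1.01 and 1.40 FPKM in the PS-COOH libraries, against 5.46, 5.87 and 5.24 FPKM in the control libraries. The condition on overlap removed a D08 gene alone once the other limits were met, with 2.20, 1.9996 and 4.16 FPKM in the PS-COOH libraries, against 3.73, 5.84 and 8.88 FPKM in the control libraries. The 2 genes left out at the end of D05 kept 35.3% and 47.3%.

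To read the genes in libraries that had not chosen them, the rule was applied to 5 libraries and the sixth was then examined. Without PS-COOH replicate 1 the rule gave 181 genes, 152 of them among the 159, and in the left-out library 180 of the 181 lay below every control library. Their median was 44.2% of the control mean in the left-out library, against 43.9% in the PS-COOH libraries that had chosen them. For PS-COOH replicate 2, 163 of 164 genes lay below every control library with a median of 42.4%, and for PS-COOH replicate 3, 165 of 166 with a median of 43.6%.

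In the whole control range, 41.6%, 44.7% and 41.0% of genes lay below every control library in PS-COOH replicate 1, 2 and 3. The control libraries in these comparisons are the ones that had chosen the genes, so only the PS-COOH side was read anew. The shares of the whole control range cover genes at every ratio. They are thus no like background for genes already chosen at 50% or less, where a low left-out value was likely from the choice itself. Whether the left-out library is a separate biological sample is not given. The share of genes above 50% of the control mean in the left-out library was 26.5%, 20.7% and 28.3% for PS-COOH replicates 1, 2 and 3. The control libraries were left out in the same way. Of 180, 156 and 169 genes chosen without control replicate 1, 2 and 3, the left-out value lay above every PS-COOH library in 173, 156 and 168, against 42.1%, 44.3% and 43.4% of the whole control range. Here the PS-COOH libraries are the ones that had chosen the genes, and the same cautions apply. The PS-COOH mean was a median of 44.0%, 43.6% and 44.2% of the left-out control value.

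**Figure D4:**
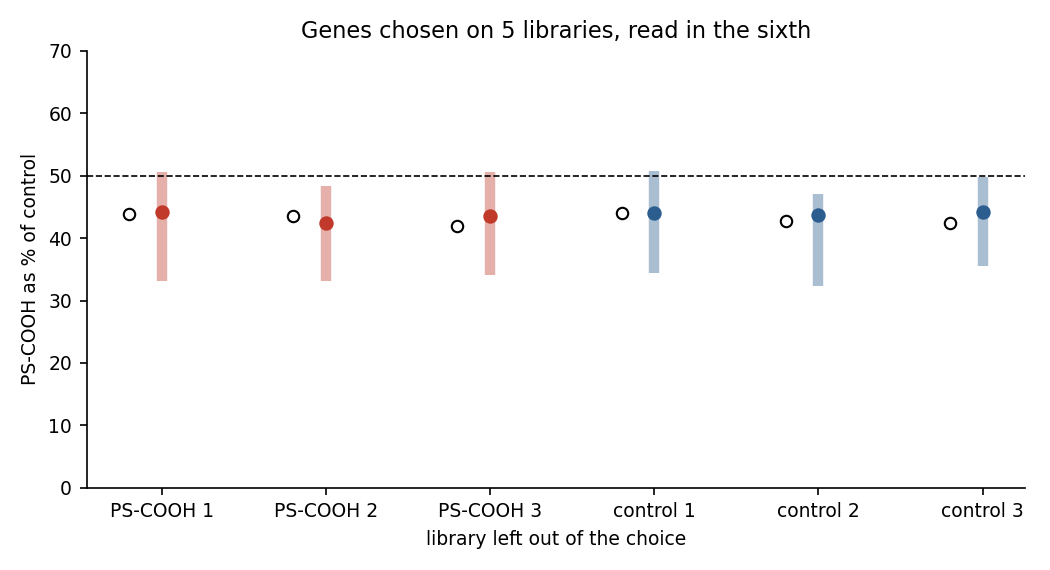
PS-COOH level as a percentage of control for genes chosen by the rule on 5 libraries. Filled points and bars give the median and the quartiles in the library that was left out (red for a PS-COOH library, blue for a control library), open points the median in the libraries used, and the dashed line marks 50%; the filled medians lie between 42.4% and 44.2%.

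A limma test on log2(FPKM + 1) over 45258 genes with at least 1 FPKM in at least 3 libraries called 15.1% of them as fallen (adjusted p under 0.05), and 22.1% of the control range. All 159 genes were tested and all 159 were called, which their choice on the same values made nearly certain and from which nothing is read. Their log2(FPKM + 1) differences ran from -2.63 to -0.80 with a median of -1.09, and the median over all tested genes was -0.016.

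The chromosome codes, which the rule used only for the end of D05, showed no strong preference for a subgenome. Of the 159 genes, 82 carry an A code, 76 a D code and 1 a scaffold code. These are 0.778% of the 10543 A genes and 0.708% of the 10737 D genes in the control range. The D genes counted include the end of D05, where none could be chosen. The A genes kept a median of 43.7% and the D genes a median of 41.8%, at median PS-COOH levels of 4.37 and 3.68 FPKM and median control levels of 11.2 and 9.89 FPKM.

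Every one of the 26 chromosome codes held at least 1 of the genes. A05 held the most, 13, followed by A10 and A12 with 10 each, and A06 held 1. As a share of the control range, A10 was highest at 1.36% of 738 genes, followed by A07 at 1.23% of 729, and A06 was lowest at 0.149% of 672. D05 held 4 of the genes, among 1270 of the control range. Its end is counted in the 1270 but could hold none of the chosen genes. These shares rest on few genes per chromosome and were not tested.

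In number order along the chromosomes, which is taken to follow position, the genes were denser toward the high-numbered end. The last 20% of identifiers of the chromosomes held 46 of the 158 placed genes, or 29.1%, against 19.5% of the control range. That is 1.11% of the control range there, against 0.654% in the rest of the chromosomes. The excess was larger among A codes, at 1.33% against 0.640%, than among D codes, at 0.881% against 0.667%. Genes at the end of D05 could not be chosen but are counted in the control range, which lowers the D figure for the last 20%. Part of this contrast between A and D codes thus comes from the rule. With that end not left out, the last 20% held 48 genes in place of 46. The 46 genes came from 22 of the 26 codes, with at most 5 on 1 code (A10). Doubled genes were also more frequent in the last 20%, at 1.93% of the control range, against 0.833% to 1.52% in the other stretches of 20%.

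The identifier number itself differed between the chosen genes and the rest. Most of the numbers are multiples of 100, and the others are called intermediate here. Intermediate numbers made up 31 of the 158 placed genes, or 19.6%, against 7.29% of the other 21122 genes of the control range and 13.0% of the 277 doubled genes with a chromosome code. The difference held at each control level: genes with an intermediate number met the rule in 1.74%, 1.61%, 2.83% and 5% of cases in the 4 level ranges, and genes with a multiple of 100 in 0.668%, 0.561%, 0.721% and 0.662%. The 5% stands for 3 of 60 genes. What the intermediate numbers stand for is not given in the sources used here.

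The part kept was close in genes with the 2 kinds of number. Those with an intermediate number kept a median of 43.1% and those at multiples of 100 a median of 42.9%, with median control levels of 10.2 and 10.9 FPKM. The denser end of the chromosomes was not richer in intermediate numbers, which were 6.98% of the control range there. Among multiples of 100 alone, 0.906% of the control range in the last 20% met the rule, against 0.486% to 0.662% in the other stretches.

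**Figure D5:**
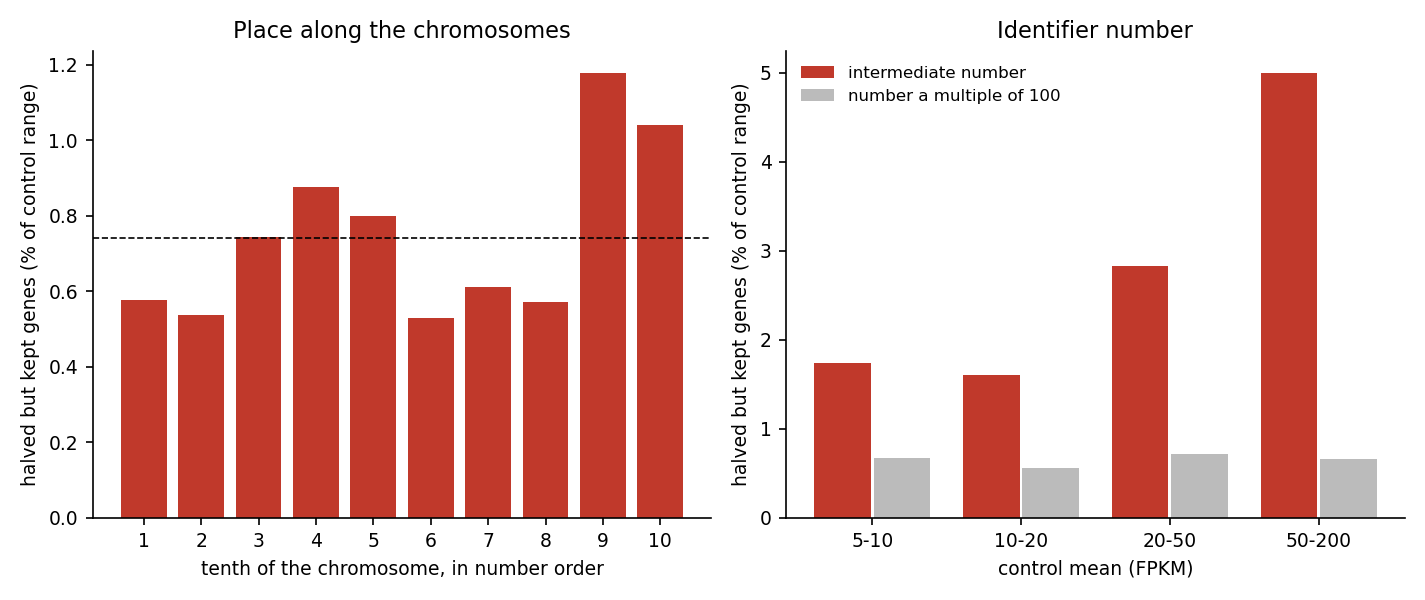
Left, the chosen genes as a percentage of the control range in each 10% of the identifiers of a chromosome, in number order and over all chromosomes, with the share over all as a dashed line; right, the same percentage by control level for genes with an intermediate number (red) and for multiples of 100 (grey). The last 2 bars on the left reach 1.18% and 1.04%, and on the right the red bars are above the grey ones at each level.

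Some of the genes lay beside each other. Of the 159, 17 (10.7%) were in 9 pairs that were direct neighbours in number order among identifiers of at least 5 FPKM in the control, and 6 of these pairs were also direct neighbours among all listed identifiers. The 159 genes are 0.746% of the control range. This is no like background for the 10.7%, since a gene has a neighbour on either side. The share to be set beside it was not computed. Reads that match neighbouring copies of 1 gene equally well cannot be traced to 1 copy, and how they were handled is not given. Levels within pairs of copies are thus less certain. Whether these pairs are copies was not tested. Some pairs kept a like part of their level. On A04, neighbours averaged 3.89 and 1.75 FPKM in the PS-COOH libraries, against 12.6 and 5.73 FPKM in the control libraries, and kept 30.8% and 30.6%. On A07, neighbours averaged 8.13 and 2.67 FPKM in the PS-COOH libraries, against 18.3 and 5.54 FPKM in the control libraries, and kept 44.5% and 48.2%.

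Other neighbours differed. There were 5 stretches of at least 3 genes, each gene within 25 expressed identifiers of the next, which together held 16 genes, on A07, A10, D01, D02 and D11. In the last 20% of D11, 3 of the genes followed each other among expressed identifiers and kept 49.4%, 15.3% and 36.4%. They averaged 9.98, 2.84 and 2.22 FPKM in the PS-COOH libraries, against 20.2, 18.6 and 6.10 FPKM in the control libraries, and the middle one is the gene second in the order of ratios. In the last 20% of A10, 4 genes lay within 29 expressed identifiers and all kept under 30%, at 21.5%, 16.7%, 28.0% and 24.0%. They averaged 3.26, 1.23, 16.0 and 2.33 FPKM in the PS-COOH libraries, against 15.1, 7.40, 57.0 and 9.72 FPKM in the control libraries. The genes of the other stretches kept 42.8% to 48.2% on A07, 29.2% to 44.1% on D01 and 18.0% to 43.1% on D02. The limit of 25 was set after the values had been seen. How many such stretches would form among as many genes placed at random was not computed. The count of stretches is thus a description, and no clustering is read from it.

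The expressed genes directly beside the 159, and not among them, were mostly near their control level. In 297 such neighbours the PS-COOH mean was a median of 95.5% of the control mean, against 97.3% in all 21328 expressed genes outside the list. However, 23 of the neighbours (7.74%) were at or below 0.667 of the control mean, against 3.58% of all. At a distance of 2 expressed genes this share was 3.53%, and at distances of 3, 5, 10 and 25 it was 4.50%, 3.90%, 4.22% and 4.33%. Neighbours at 1.5 times the control mean or more were 3.70%, against 4.38% of all. These shares are descriptions, and neighbouring genes that overlap or share sequence were not separated.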

How the data were processed

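The authors deposited 1 table of FPKM values for 6 root libraries (paired-end reads of 150 bp, as the labels' protocols state), grouped here by their titles; all 6 columns were used. HISAT2 and StringTie are named, without versions or roles, in the submitters' processing notes; genome build, annotation and filters: not given in the sources used here. The unit makes no correction beyond length and library total. The members and the comparisons by chromosome, number and neighbour were chosen with earlier results of these data known.

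The limma test (limma 3.58.1, R 4.3.3) was run on log2(FPKM + 1) with a trended prior and Benjamini-Hochberg adjustment over 45258 identifiers at 1 FPKM or more in at least 3 libraries, and tested on simulated data. Fold changes on this scale understate the change of low genes. Printed identifiers are the gene with the lowest ratio and the gene with the highest control mean; others are the 10 with the highest control mean, the 10 lowest by ratio, the 3 beside each limit, the 3 with the widest spread and adjacent genes. Alternatives were pseudocount, filter, scaling, prior, replicate block, limits of the rule and leaving out each library. No pair of libraries shared identical values above 1 FPKM. Figures used matplotlib 3.10.9.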

Additional observations from a re-analysis of the deposited data

How the results depend on the processing

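Of the 159 genes, 149 met the rule after median-ratio scaling, and 153 did after quantile normalization, which gave 163 genes. The number meeting the rule followed its limits: 101 at most 0.45 and 268 at most 0.55 of the control mean, and 84 from a control mean of 10 FPKM. Without 1 library it was 156 to 181, with a median part kept of 42.0% to 44.1% (43.3% under quantile normalization). The genes' share of all FPKM was lower in the PS-COOH libraries by 0.366 percentage points; the difference was -0.356 under median-ratio scaling, -0.354 under quantile normalization, and -0.401 to -0.349 without 1 library. D codes made up 46.1% to 51.5%, intermediate numbers 17.8% to 26.0% and the last 20% of the chromosomes 25.2% to 28.8% of the genes chosen without 1 library. All these values for the last 20% lay below the 29.1% found with all 6 libraries. Under other limits the last 20% held from 24.3% (group medians) to 31.0% (control mean from 10 FPKM). Intermediate numbers ranged from 16.6% (at most 0.55 of the control mean) to 22.8% (at most 0.45).

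In the limma test, 6825 genes fell, 4384 with no filter on low values (where 149 of the 159 genes were called) and 4851 to 5967 without 1 library; 7117 rose, and 5064 to 6630 without 1 library. A robust prior called 158 of the 159. With a replicate block 6014 fell and 6687 rose, and all 159 genes were called. Same-numbered libraries did not deviate together from their group means (correlations of -0.073, -0.061 and -0.0073). None of the control libraries correlated best with its own number. The labels do not say whether same-numbered libraries were handled together, and these correlations cannot settle it. The log2 difference without 1 library was -1.88 to -1.82 for Gohir.A10G199000.v2.1 and -2.70 to -2.54 for Gohir.D12G221700.v2.1. Absolute depth is unknown, so values near 1 FPKM are the least certain.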
